A study of Homo sapiens with 15 samples.

Results

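The receptor tyrosine kinases are cell-surface receptors whose intracellular part is a protein tyrosine kinase or a related pseudokinase. To understand which of them C4-2B cells transcribed, the RNA levels of 57 such genes, listed by name, were read among the 58302 genes of the deposited tables. C4-2B is an established bone-derived subline of the LNCaP prostate adenocarcinoma cells, which is labelled wild type and grown in medium with serum. The series has RNA-seq libraries labelled for 5 groups of 3 replicates, 15 in all, and the others are DKD and ER cells given a scrambled control or an siRNA against Pax5. DKD cells derive from C4-2 cells depleted of a pair of tumour suppressors, and ER cells from C4-2B cells kept in the androgen receptor inhibitor enzalutamide. Only the 3 libraries of C4-2B cells, at 44992971, 49569026 and 46232076 counts, were analysed here, so the levels below describe untreated C4-2B cells and no condition was compared with another. The study describes its experiments as independent replicates and its RNA-seq as done in triplicate, but the labels name no separate cultures, so the p-values below measure the spread between these libraries, which may be technical.

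Most receptor tyrosine kinases are switched on when an extracellular ligand brings receptor chains together, after which the kinase phosphorylates tyrosines that recruit adaptor proteins to the RAS-MAPK and PI3K-AKT pathways. The families differ in ligand: EGF-like factors bind ERBB receptors, insulin and the insulin-like growth factors bind INSR and IGF1R, membrane-held ephrins on neighbouring cells bind EPH receptors, fibroblast growth factors bind FGFRs, GAS6 and protein S bind TAM receptors, and collagen binds DDRs. In prostate epithelium, ERBB, IGF1R, EPH and FGFR signalling are known routes of growth control. Some members have lost much or all of their kinase activity and act mainly through partners, among them ERBB3, PTK7, RYK, ROR1, EPHB6, EPHA10 and STYK1.

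The promoters of a few members show sequence and level side by side: EGFR, the receptor with the most RNA per length; ERBB4, its relative with almost none; KIT, the stem cell factor receptor, nearly silent below a CpG-dense promoter; and TIE1, an endothelial receptor, nearly silent below a promoter almost without CpG. They were chosen after their values were seen. Each sequence below is the 250 bases before the transcript start in RefSeq on GRCh38.p14, 5′ to 3′ on the strand of the gene, and the capitals mark CpG dinucleotides.
EGFR (chr7:55018767-55019016, plus strand): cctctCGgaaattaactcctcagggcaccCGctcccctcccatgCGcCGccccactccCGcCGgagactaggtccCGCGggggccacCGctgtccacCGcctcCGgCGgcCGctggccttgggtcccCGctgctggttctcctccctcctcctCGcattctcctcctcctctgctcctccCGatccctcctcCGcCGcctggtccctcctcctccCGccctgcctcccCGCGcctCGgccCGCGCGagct
ERBB4 (chr2:212538803-212539052, minus strand): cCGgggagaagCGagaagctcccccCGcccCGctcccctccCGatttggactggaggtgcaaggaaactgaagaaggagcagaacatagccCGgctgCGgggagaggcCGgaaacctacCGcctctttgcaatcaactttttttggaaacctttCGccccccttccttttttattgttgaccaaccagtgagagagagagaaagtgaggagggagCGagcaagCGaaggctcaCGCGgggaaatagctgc
KIT (chr4:54657707-54657956, plus strand): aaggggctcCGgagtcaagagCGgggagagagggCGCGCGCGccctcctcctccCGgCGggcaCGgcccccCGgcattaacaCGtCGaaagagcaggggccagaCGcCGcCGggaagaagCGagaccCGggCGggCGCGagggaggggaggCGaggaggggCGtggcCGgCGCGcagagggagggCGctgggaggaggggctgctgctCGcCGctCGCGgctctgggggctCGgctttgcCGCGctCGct
TIE1 (chr1:43300732-43300981, plus strand): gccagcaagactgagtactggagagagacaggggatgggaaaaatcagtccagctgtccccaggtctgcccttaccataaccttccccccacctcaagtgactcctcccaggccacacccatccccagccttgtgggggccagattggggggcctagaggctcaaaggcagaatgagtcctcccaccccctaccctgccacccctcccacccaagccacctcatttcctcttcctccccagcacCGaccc
The EGFR promoter held 25 CpGs, ERBB4 14, KIT 34 and TIE1 1. Relative to the number its C and G content would give, that was an observed over expected CpG ratio of 0.881 for EGFR, 0.686 for ERBB4, 0.973 for KIT and 0.0467 for TIE1.

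Members with little RNA carried CpG-rich promoters more often than protein-coding genes with little RNA. RefSeq promoters were matched for 51 of the 57 members, and those of EPHA10, ERBB3, FGFR1, STYK1, FLT4 and INSRR were not. A ratio of at least 0.6 was taken as CpG-rich, and levels are in TPM, a transcript abundance scaled by gene length and library. Of 25 members with at least 1 TPM in all libraries, 20 had a CpG-rich promoter (80%, beside 81.1% of the protein-coding genes at that level). Of the 17 members with a mean under 0.1 TPM, 10 had such a promoter, 58.8%, beside 27.7% of protein-coding genes under that level. The median ratio of these 17 was 0.640 and that of the corresponding protein-coding genes was 0.320. For 19 members the table held several promoter windows and the most upstream was used. With the most CpG-rich window of each gene in its place, a choice made after seeing the data, 12 of the 17 were CpG-rich (70.6%, beside 30.8%). The motif GGGCGG, known as the GC box, was found on either strand of 38 of the 51 promoters (74.5%), and in 56.6% of protein-coding and 42.2% of all RefSeq promoters. The motif TATAAA, searched in the same way, occurred in those of LMTK2, DDR2 and FLT1, which is 5.88% of the members beside 9.31% of protein-coding and 11.2% of all promoters. These shares describe the sequences and were not tested.

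**Figure D1:**
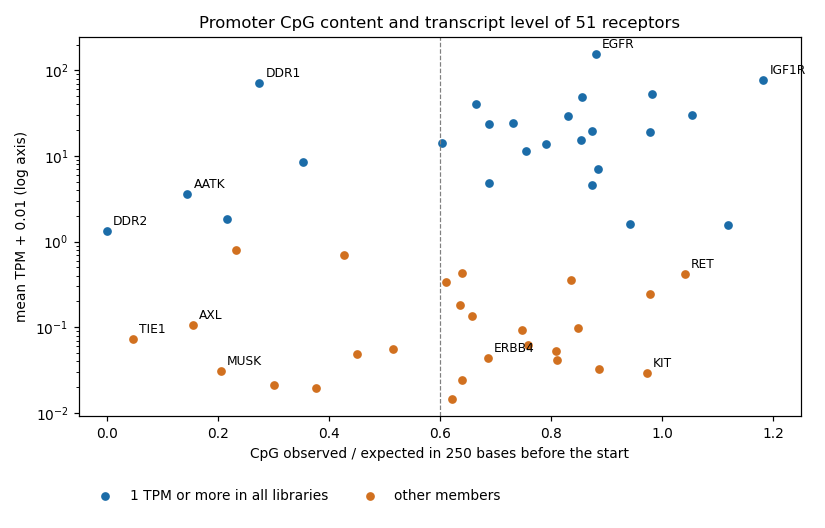
Each point is 1 of the 51 receptors with a RefSeq promoter, placed by the CpG observed over expected ratio of the 250 bases before its start and by its mean TPM over 3 libraries plus 0.01 on a log axis; the dashed line is at 0.6. KIT at 0.973 and RET at 1.04 lie at the right with levels under 1 TPM. DDR1, at 0.275 in the most upstream of its 8 promoter windows, lies at the left with 70.4 TPM.

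C4-2B cells held a wide but uneven set of these receptors. Of 57 members, 29 reached 1 TPM in every library, which is 50.9% beside 61.2% of 19708 protein-coding genes and 32.8% of all genes. TPM corrects a count for gene length and scales every library to the same sum, so that levels of different genes can be set side by side. The length is that of all annotated exons together, so the order of genes depends on it as well as on RNA. In CPM, the count scaled by the library total alone, EGFR stayed highest at 616. There IGF1R (334) stood above ERBB3 (242), ERBB2 (164) above EPHB4 (109) and FGFR1 (17.7) above FGFR4 (7.45). At least 10 TPM were reached by 18 members, 10 members lay between 0.1 and 1 TPM, and 18 had a mean under 0.1 TPM (31.6%, beside 24.6% of protein-coding genes). No member had 0 counts in all 3 libraries, whereas 12.6% of protein-coding genes did. The TPM summed over all members was 788, 784 and 796 in libraries 1 to 3 (789 ± 6.31, SD, n = 3). Scaled to protein-coding, non-mitochondrial genes alone, the sum was 1253 TPM, with every level raised by nearly the same factor. The 5 highest members (EGFR, ERBB3, IGF1R, DDR1 and EPHB4) made up 55.8% of it, the 10 highest 77.9% and the 29 expressed members 99.4%. The median over members was 1.31 TPM, beside 5.88 for protein-coding genes, and over the expressed ones 14.0 beside 22.2 TPM.

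**Figure D2:**
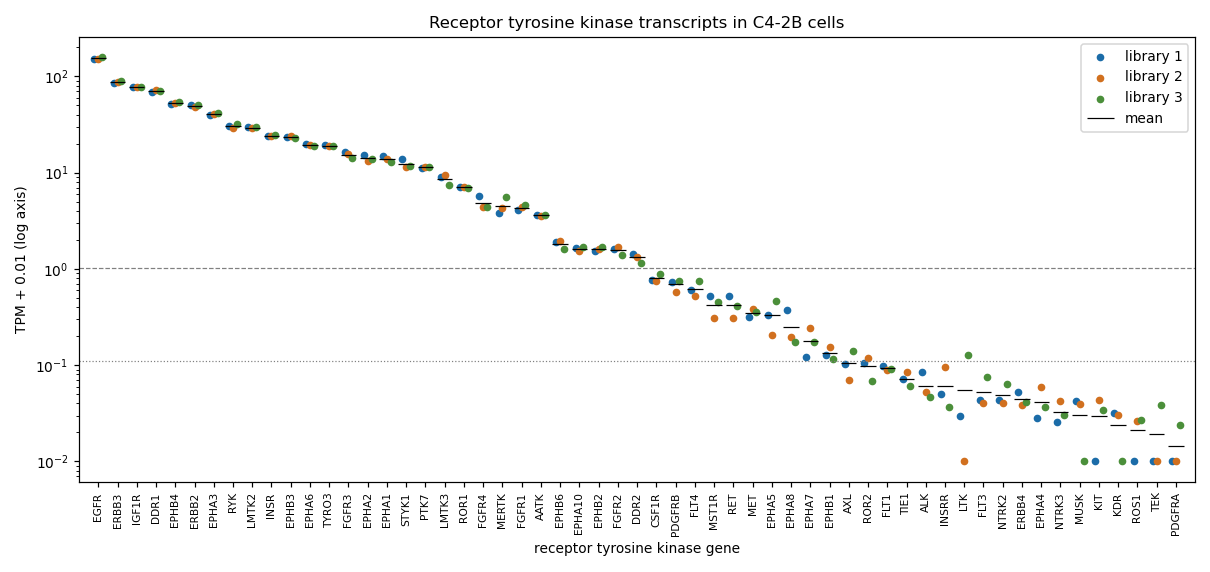
TPM plus 0.01 on a log axis for all 57 receptors in order of mean level, with a point per C4-2B library and a bar at the mean; lines mark 1 TPM (dashed) and 0.1 TPM (dotted), and points at the bottom are libraries with 0 counts. Points of a gene lie close together down to about EPHB6 at 1.81 TPM and spread apart below it, where counts are few.

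The ERBB family, the receptors of the EGF-like factors, carried the most receptor RNA of any subfamily, with 285, 286 and 298 TPM in the libraries (290 ± 6.77) and 36.7% ± 0.589 of the receptor sum. EGFR, the EGF receptor (chr7:55019021-55211628), had 27332, 30342 and 29116 counts, or 151, 152 and 157 TPM (153 ± 3.57), above 96.3% of protein-coding genes. ERBB3, which binds neuregulins and signals through a partner kinase, had 85.0, 86.4 and 89.6 TPM (87.0 ± 2.34). ERBB2, the partner that binds no ligand itself, had 49.8, 47.7 and 50.6 TPM (49.4 ± 1.51), with 7.41% of its exon bases under PGAP3 and MIEN1 on the opposite strand. The ranges of the 3 receptors were apart in this order in every library. EGFR was 1.76 ± 0.00710 times ERBB3 and ERBB3 1.76 ± 0.0539 times ERBB2. ERBB4, the other neuregulin receptor, had 8, 6 and 6 counts in the libraries, which is 0.0342 TPM (95% exact Poisson interval of the summed count 0.0208 to 0.0525). Its count was under 10 in every library.

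The transcripts of most ERBB ligands were scarce beside the receptors. Of 11 ligand genes, 3 were expressed: EGF at 8.14, 8.07 and 8.97 TPM (8.39 ± 0.502), HBEGF at 5.05, 4.27 and 4.71 TPM (4.68 ± 0.393) and TGFA at 2.03, 1.86 and 1.81 TPM (1.90 ± 0.113), all of them ligands of EGFR. Their ranges over libraries were apart. EREG and EPGN, further EGFR-binding factors, had 0 counts, and 3 counts over the 3 libraries would have been 0.0116 TPM for EREG and 0.0366 TPM for EPGN. Of the genes named after their values were seen, AREG had 0, 1 and 0 counts and NRG1, which encodes a neuregulin for ERBB3 and ERBB4, had 2, 1 and 1. All 11 ERBB ligands together came to 15.6 ± 0.612 TPM.

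The insulin receptor family ranked behind ERBB and EPH, with 101, 101 and 102 TPM (101 ± 0.504), although in CPM, without length correction, it stood above EPH (17.6% beside 13.8% of the receptor sum). IGF1R, the receptor of the insulin-like growth factors (chr15:98648971-98964530), had 15025, 16576 and 15422 counts, or 76.7, 77.1 and 77.3 TPM. Its coefficient of variation over libraries, 0.124% of its CPM (the count scaled by the library total), was the lowest of the members with at least 30 counts. INSR, the insulin receptor, had 24.1, 24.0 and 24.6 TPM (24.2 ± 0.290), so that IGF1R stood 3.18 ± 0.0318 times above it in TPM. INSRR, an alkali-sensing relative without a known peptide ligand, had 3, 7 and 2 counts (0.0511 TPM). The ligand IGF1 was listed at 5.26, 5.52 and 5.11 TPM (5.30 ± 0.211). Exons of HELLPAR on the opposite strand cover 82.8% of its exon bases, and since strand was not used, reads over both genes were counted for neither. Only 1387 of the 8087 exon bases of IGF1 could thus be counted, but all 8087 were used as its length. The IGF1 level is therefore likely too low. IGF2 had 0.193 ± 0.0451 TPM and INS, which shares 31.7% of its exon bases with a readthrough gene, had 0 counts, with a limit of 0.0856 TPM. Of the proteins downstream of these receptors, IRS1 and IRS2 were at 6.32 ± 0.147 and 6.12 ± 0.321 TPM, both named after their values were seen. IGF2R, which takes IGF2 into the cell for breakdown, was at 79.9 ± 1.75 TPM.

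The EPH receptors, which read ephrins on neighbouring cells, are the largest family, and 9 of its 14 members were expressed, adding up to 171, 170 and 170 TPM (170 ± 0.559). EPHB4, the main ephrin-B2 receptor, led with 52.1, 52.8 and 53.9 TPM (52.9 ± 0.919). EPHA3 followed with 39.8, 41.0 and 41.6 TPM (40.8 ± 0.930), and the ratio of the pair was 1.30 ± 0.0112. EPHB3 at 23.6 ± 0.553 TPM and EPHA6 at 19.3 ± 0.520 TPM were each apart from the next in the family. EPHA2, with 15.1, 13.2 and 13.8 TPM, and EPHA1, with 14.9, 13.7 and 12.9 TPM, overlapped. The last of the expressed EPH genes were EPHB6 at 1.81 ± 0.171 TPM, EPHA10 at 1.61 ± 0.0766 TPM and EPHB2 at 1.54, 1.59 and 1.68 TPM, and their ranges overlapped. EPHB6 and EPHA10 both encode receptors without kinase activity. Below them, EPHA5 had 46, 31 and 66 counts (0.325 ± 0.128 TPM), EPHA8 0.237 ± 0.107 TPM, EPHA7 0.170 ± 0.0627 TPM and EPHB1 0.124 ± 0.0191 TPM. EPHA4, which binds ephrins of both classes, had 2, 6 and 3 counts (0.0317 TPM). A-type and B-type receptors were each found at both ends of the family.

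Ephrins were the only ligand family of 3 or more genes with every gene expressed, 8 of 8, and at 489 ± 11.5 TPM their sum exceeded that of their receptors in all 3 libraries. EFNA5 had 219, 225 and 227 TPM (224 ± 4.16) and EFNA1 123, 120 and 127 TPM (123 ± 3.41). EFNA4 had 43.1, 45.5 and 46.8 TPM (45.2 ± 1.87), with 15.0% of its exon bases shared with a readthrough gene that joins it to EFNA3. EFNA3, at 36.0 ± 3.12 TPM, shares 44.7% with that gene, so its level is uncertain. EFNB2, the ligand of EPHB4 and like EFNA3 named after its values were seen, had 32.5, 34.5 and 34.0 TPM (33.7 ± 1.02).

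All 4 fibroblast growth factor receptors were expressed, at 27.6, 26.0 and 24.7 TPM together (26.1 ± 1.45). FGFR3 had 16.3, 15.6 and 14.3 TPM (15.4 ± 0.983), apart from the others in every library. FGFR4, the main receptor of the hormone FGF19, had 5.67, 4.36 and 4.39 TPM (4.81 ± 0.750), and FGFR1 had 4.05, 4.37 and 4.58 TPM (4.33 ± 0.268). Their ranges overlapped, with a ratio between 0.958 and 1.40. FGFR2, whose splice forms differ between epithelium and mesenchyme, had 1.61, 1.69 and 1.38 TPM (1.56 ± 0.159), and gene counts do not tell its splice forms apart. None of the 18 fibroblast growth factor genes listed reached 1 TPM in all 3 libraries. The highest was FGF22 with 1.14, 0.995 and 0.829 TPM (0.989 ± 0.157), then FGF21 with 0.717 ± 0.377 TPM and FGF18 with 0.229 ± 0.179 TPM. FGF3, FGF4, FGF5, FGF10, FGF16 and FGF19 had 0 counts, and 3 counts would have been 0.0271 TPM for FGF19. Of the FGF co-receptors, GPC1 was at 14.9 ± 1.01 TPM, KLB at 2.50 ± 0.138 TPM and KL at 0.732 ± 0.0518 TPM, all named after their values were seen.

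Of the TAM receptors, which bind GAS6 and protein S and clear dying cells, TYRO3 had 19.4, 18.8 and 18.8 TPM (19.0 ± 0.346) and MERTK 3.80, 4.28 and 5.56 TPM (4.55 ± 0.909). TYRO3 was 3.38 to 5.10 times MERTK. AXL, the third member, had 7, 5 and 10 counts (0.0953 ± 0.0352 TPM). Both ligands were expressed, GAS6 at 9.28, 8.67 and 9.21 TPM (9.05 ± 0.333) and PROS1, the gene of protein S, at 2.31, 2.21 and 2.72 TPM (2.41 ± 0.271).

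The collagen receptors DDR1 and DDR2 were far apart. DDR1, the epithelial form, had 69.6, 71.4 and 70.3 TPM (70.4 ± 0.905), next below IGF1R among all members. DDR2, the mesenchymal form, had 1.43, 1.33 and 1.15 TPM (1.31 ± 0.139), the lowest of the expressed members, and DDR1 was 54.4 ± 6.10 times higher. The LMTK family, membrane kinases that are set apart from the classic receptors and have no known ligand, came to 41.6 ± 0.953 TPM. Within it LMTK2, a kinase of endosomal traffic, had 29.6, 29.1 and 29.5 TPM, LMTK3 9.05, 9.39 and 7.38 TPM, and AATK, first described in apoptosis of myeloid cells, 3.62, 3.51 and 3.64 TPM. The 3 genes did not overlap.

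Of the remaining receptors with pseudokinase members, RYK, a WNT receptor, had 30.3, 29.0 and 31.7 TPM (30.3 ± 1.35), overlapping LMTK2. STYK1, a short membrane protein with a kinase-like domain, had 13.8, 11.5 and 11.8 TPM (12.4 ± 1.26) and overlapped PTK7, which had 11.2, 11.5 and 11.4 TPM (11.4 ± 0.187). ROR1, which binds WNT5A, had 7.07, 7.12 and 6.90 TPM (7.03 ± 0.117), while its relative ROR2, with 8, 10 and 5 counts, had 0.0870 ± 0.0258 TPM. Of the ligands listed for RYK and the ROR receptors, WNT5A had 2.21, 2.96 and 2.87 TPM (2.68 ± 0.412) and WNT5B 6, 0 and 0 counts.

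In 9 of the 20 subfamilies no member reached 1 TPM in every library: PDGFR, VEGFR, MET, RET, ALK, TIE, NTRK, MUSK and ROS1. CSF1R, the macrophage growth factor receptor, was the highest of their members by TPM with 0.750, 0.744 and 0.881 TPM (56, 61 and 67 counts). PDGFRB, the platelet-derived growth factor receptor of stromal cells, had 0.725, 0.572 and 0.740 TPM. The exact Poisson intervals of the pair overlapped, at 0.680 to 0.913 TPM for CSF1R and 0.589 to 0.772 TPM for PDGFRB. In CPM the order was reversed, with CSF1R at 1.31, PDGFRB at 1.56 and FLT4 at 1.74. FLT4, the lymphatic VEGF receptor, had 0.612 ± 0.113 TPM. MST1R, the receptor of macrophage-stimulating protein, had 39, 25 and 34 counts (0.417 ± 0.108 TPM), RET 52, 33 and 41 counts (0.407 ± 0.110 TPM) and MET, the hepatocyte growth factor receptor, 31, 42 and 36 counts (0.342 ± 0.0357 TPM). These 3 overlapped one another.

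The rest of these receptors had 47 counts or fewer over all 3 libraries. FLT1, a VEGF receptor, had 16, 16 and 15 counts in a gene of 12567 exon bases (0.0829 TPM), and NTRK2, a neurotrophin receptor, 10, 10 and 16 counts (0.0393 TPM). NTRK3 had 6, 14 and 8 counts, TIE1 6, 8 and 5, ALK 8, 5 and 4, and FLT3 2, 2 and 4. At least 1 library had no count for 7 members: LTK (1, 0 and 6), MUSK (2, 2 and 0), KIT (0, 3 and 2), KDR (2, 2 and 0), ROS1 (0, 2 and 2), TEK (0, 0 and 2) and PDGFRA (0, 0 and 2). The upper bounds of the exact Poisson intervals were 0.0915 TPM for LTK, 0.0464 TPM for KIT, 0.0362 TPM for KDR and 0.0164 TPM for PDGFRA. The order among these genes cannot be told at this depth. Leaving out library 3 puts LTK at 0.00988 TPM instead of 0.0454, and TEK and PDGFRA at 0. It also leaves KIT at 0.0169 TPM, while without library 2 KIT is at 0.0122 instead of 0.0194 TPM and INSRR at 0.0336 instead of 0.0511 TPM. NTRK2 and NTRK3 have exon unions of 20363 and 26750 bases, so that a TPM by union length is low where short isoforms are made.

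**Figure D3:**
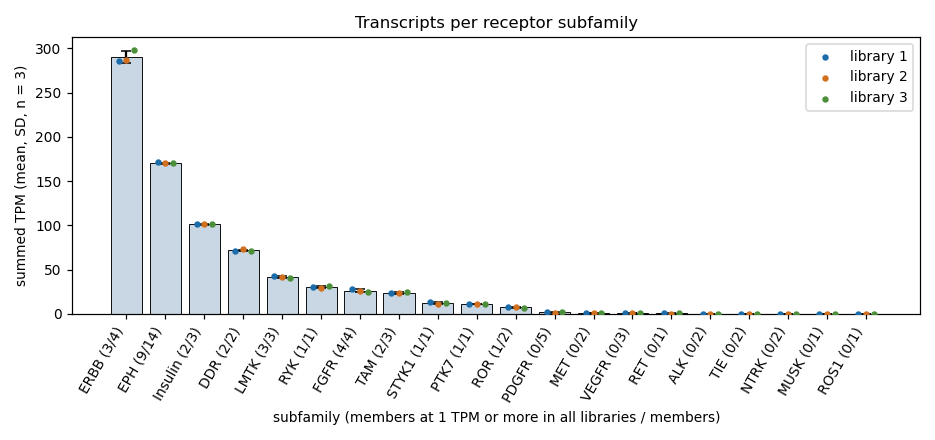
Bars show the TPM summed over each receptor subfamily (mean of 3 C4-2B libraries, error bars SD), with a point per library and, in brackets, the expressed members of all members. ERBB stands at 290 TPM and EPH at 170 TPM, and the 9 subfamilies from PDGFR on the right all lie under 2 TPM.

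In order of summed TPM the subfamilies ran from ERBB, EPH and the insulin family over DDR, LMTK, RYK, FGFR and TAM to STYK1, PTK7 and ROR, and these 11 held every expressed member. The order of EPH and the insulin family depends on the length correction, and so do the places of some single members, such as ERBB3 and IGF1R. FGFR and TAM lay close, but the lowest FGFR sum of 24.7 TPM was above the highest TAM sum of 24.5 TPM. Of the 19 neighbours in the order, the ranges of STYK1 and PTK7, MET and VEGFR, ALK and TIE, TIE and NTRK, and MUSK and ROS1 overlapped. Among single expressed members, 13 of 28 neighbours in the order overlapped and 15 did not. The compared levels come from the same 3 libraries, and with 3 pairs an exact two-sided permutation test cannot give a p below 0.25, so the orders rest on ranges and were not tested.

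Several ligands were at high levels where their receptor had little or no RNA. GDF15, a stress cytokine that signals through GFRAL together with RET, had 1009, 975 and 959 TPM (981 ± 25.5), above 99.7% of protein-coding genes, while GFRAL had 0 counts (3 counts would have been 0.0347 TPM) and RET 0.407 TPM. GFRA1, the co-receptor of GDNF for RET, had 0 counts as well. VEGFA, with 104, 102 and 102 TPM (102 ± 1.06), and VEGFB, with 44.3 ± 2.63 TPM, bind VEGF receptors, of which all 3 were under 1 TPM. Of the VEGF co-receptors, NRP1 was expressed at 12.3 ± 0.480 TPM and NRP2 had 0.126 ± 0.0430 TPM, both named after their values were seen. VEGFC had 0 counts. AGRN, the nerve-derived signal for MUSK that many epithelia also make, had 77.0 ± 2.37 TPM. PDGFB had 16.5, 17.3 and 17.7 TPM (17.2 ± 0.647), PDGFA 3.91 ± 0.547 TPM and KITLG, the KIT ligand, 2.67 ± 0.144 TPM. MST1, the ligand of MST1R, was listed at 9.83 ± 0.426 TPM, but near-identical copies of the gene make this value uncertain. HGF, the MET ligand, had 8, 10 and 12 counts (0.0746 TPM). ANGPT2, a TIE receptor ligand, had 3.80 ± 0.146 TPM. Of the ligands for NTRK and ALK receptors, BDNF and ALKAL1 had 0 counts, and NTF4 at 0.336 ± 0.160 TPM and ALKAL2 at 0.526 ± 0.0397 TPM were the highest.

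**Figure D4:**
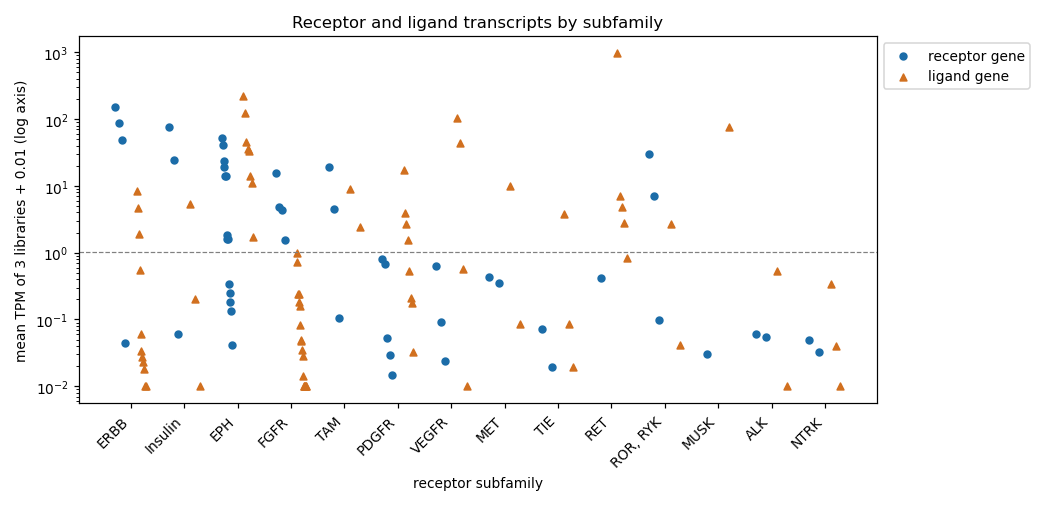
Mean TPM over 3 libraries plus 0.01, on a log axis, of each receptor gene (circles) and each listed ligand gene (triangles), by subfamily; the dashed line marks 1 TPM. Ephrins all lie above the line beside expressed EPH receptors, all fibroblast growth factors lie below it beside 4 FGFRs above it, and GDF15 at 981 TPM stands over RET at 0.407 TPM.

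Of 124 pathway genes listed, 67 were expressed and 14 had 0 counts. These counts stand beside the 61.2% of protein-coding genes that were expressed, and the lists were not tested against them or each other. Among the 72 ligands, 28 were expressed and 12 had 0 counts. Of the adaptors inside the cell, 17 of 18 were expressed, led by CRKL at 101 ± 1.43 TPM, SHC1 at 92.8 ± 1.37 TPM and GRB2, which links receptors to RAS activation, at 75.6 ± 0.810 TPM. Of the SHC1 exon bases, 15.2% lie under other genes. Of 17 feedback regulators, 14 were expressed, with DUSP4, a MAP kinase phosphatase, at 58.1 ± 0.843 TPM, RNF41, a ubiquitin ligase for ERBB3, at 53.3 ± 1.36 TPM and PTPN1, a phosphatase of the insulin receptor, at 48.1 ± 2.21 TPM. Both shedding proteases that free ERBB ligands were expressed, ADAM10 at 40.9 ± 0.748 TPM and ADAM17, with 24.1% of its exon bases under another gene, at 14.2 ± 0.120 TPM. Of 15 co-receptors, 6 were expressed, with SDC4 at 92.5 ± 3.53 TPM and SDC1 at 67.7 ± 0.965 TPM, both heparan sulfate carriers, beside IGF2R.

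Of the 41 members with at least 30 counts, none passed an adjusted p of 0.05 in a chi-square test of each gene's counts against the library sizes, with the statistic divided by 2 because mates of a pair were counted separately. Of all 22229 genes tested, 0.792% passed, so that 0 of 41 does not set the receptors apart. At an unadjusted p under 0.05 there were 8 members, 19.5%, beside 11.3% of all genes, and with the chi-square not divided there were 12, 29.3%, beside 17.3%. The median coefficient of variation of CPM was 6.79% for the members and 7.08% for all tested genes. The members' value was 3.82% without library 1 and 3.30% without library 3, but it did not fall without library 2. A spread taken from 2 values tends to be lower than from 3, and these leave-out medians were not computed for all genes. Single members ranged from 0.124% for IGF1R to 45.5% for EPHA8, which had 28, 16 and 13 counts. The lowest p was that of MERTK, with 259, 320 and 386 counts, for which the extreme libraries differed by 0.53 on the log2 scale (adjusted p = 0.135). LMTK3 had 677, 772 and 563 counts (adjusted p = 0.173) and EGFR differed by only 0.05 on the log2 scale (adjusted p = 0.225). The other members under 0.05 unadjusted were FGFR4, EPHA5, STYK1, ERBB2 and RYK, with adjusted p from 0.274 to 0.402. Library 3 was the highest for MERTK, EGFR, EPHA5, ERBB2 and RYK, library 1 for FGFR4 and STYK1, and library 2 for LMTK3. Of 86 pathway genes tested, GDF15 (adjusted p = 0.000336) and SOS1 (adjusted p = 0.00260), the latter named after its value was seen, passed.

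**Figure D5:**
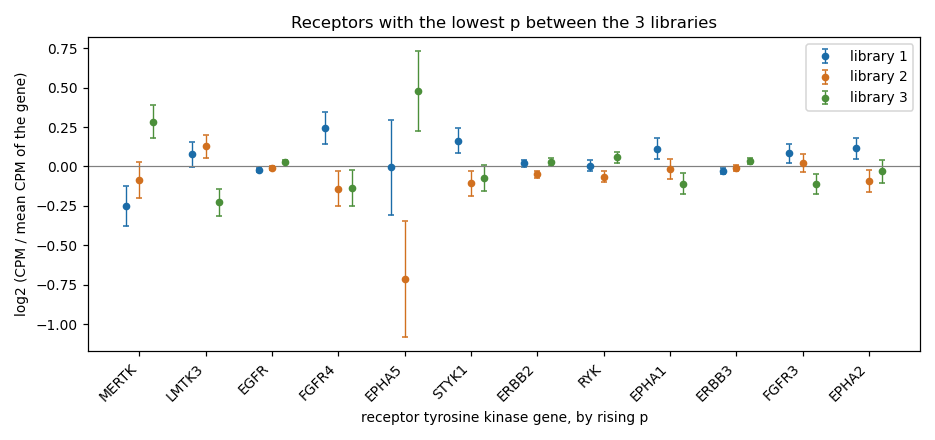
For the 12 receptors with the lowest p between libraries, points give log2 of CPM over the gene's mean CPM in each library, and bars the counting error (1 SD, with mates counted separately). MERTK spans 0.53 on this scale and EGFR 0.05, and the widest spread, that of EPHA5, comes from 46, 31 and 66 counts.

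Some receptors with little RNA are neighbours in the genome. PDGFRA, KIT and KDR follow each other on chromosome 4 from 54229097 to 55125589, with gaps of 360 and 338 kb and 0 protein-coding genes between, and all had under 0.02 TPM. CSF1R and PDGFRB are 464 bases apart on chromosome 5, in the same orientation, at 0.791 and 0.679 TPM. FLT3 and FLT1 lie 200 kb apart on chromosome 13 at 0.0428 and 0.0829 TPM. Other neighbours differed: LTK at 0.0454 TPM and TYRO3 at 19.0 TPM are 43.8 kb apart on chromosome 15, and RYK at 30.3 TPM and EPHB1 at 0.124 TPM are 347 kb apart on chromosome 3. Among ligands, EPGN, EREG, AREG and BTC follow each other on chromosome 4 and all were under 0.03 TPM, whereas EFNA4, EFNA3 and EFNA1 lie together on chromosome 1 at 36.0 TPM or more. AREG, BTC and EFNA3 were named after their values were seen, and none of these patterns was tested.

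Markers were read beside the levels, since CSF1R, PDGFRB and the VEGF and TIE receptors are best known from macrophages, stroma and vessels. The luminal prostate identity was present, with 9 of 9 markers expressed, KLK3 at 1988 ± 21.1 TPM and a sum of 3719 ± 17.6 TPM. Of 5 endothelial markers VWF was expressed (2.91 TPM), and the list summed to 4.27 to 4.69 TPM. Of 5 fibroblast markers COL1A1 was (7.09 TPM), with COL1A2 and DCN at 0 counts and sums of 6.65 to 8.18 TPM. Of 5 leukocyte markers LYZ was (2.08 TPM), with MS4A1 at 0 counts and sums of 1.74 to 2.83 TPM. None of 4 smooth muscle and pericyte markers was expressed, with DES at 0 counts and sums of 2.04 to 2.30 TPM, and none of 4 Schwann and glial markers, with sums of 0.162 to 0.272 TPM. The glial marker SOX10 shares 100% of its exon bases with other genes, so no read could be counted for it and its 0 counts are uninformative. For CD68 of the leukocyte list, named after its value was seen, that share is 85.8%, so its level is uncertain. The part of such cells in the receptor levels was not tested.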

How the data were processed

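RNA of C4-2B cells was depleted of ribosomal RNA, made into directional libraries and read as pairs. Per the submitters' processing notes, reads were aligned with STAR 2.7.0f and counted with featureCounts (Subread 1.6.3), and the authors tested with DESeq2 1.26.0. The deposited tables hold raw counts for the genes of Ensembl 90 on GRCh38. Per the file headers no strand or pair setting was used, so mates were counted separately and on either strand, and by its defaults reads over several genes or places were left out. Gene length, another column in the authors' files, equals the union of exons for all 58302 genes. The study's TPM values and protein sequences were not used here.

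Samples were grouped by title. Symbols and gene types of 57532 genes came from GENCODE 44. TPM was computed from counts and deposited lengths over all genes, and means and SDs are over 3 libraries. A gene was called expressed at 1 TPM in all 3. Libraries were compared by a chi-square test with 2 degrees of freedom on TMM-scaled sizes (edgeR 4.0.16) for genes with at least 30 counts. Benjamini-Hochberg adjustment was over all of these genes. The test was tried on simulated counts in which both mates of every pair were counted, a setting that fits the division by 2. In the data 56.6% of the values from 1 to 10 counts were even, so mates were not always counted together. The simulation therefore does not show that 2 is the right divisor for these data. Intervals and limits for 0 (3 counts over all libraries) cover counting error only and, with mates counted separately, are too narrow. Expected CpG is the product of C and G counts over the window length. Alternatives changed unit, length, denominator, thresholds, size factors (DESeq2 1.42.0) and libraries. Members and lists were chosen with earlier results of these data known. The naming rule covered all members, the 3 highest and the 0-count genes of each pathway list, and the highest of each marker list; markers at 0 counts were added later. R 4.3.3, Python 3.11.15, scipy 1.17.1 and pandas 2.3.3 were used.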

Additional observations from a re-analysis of the deposited data

How the results depend on the processing

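The count of expressed members stayed between 20 and 32 of 57 under every threshold, unit, length and denominator tried, and that of members under the detection level between 12 and 20. The summed level of 789 TPM became 760 TPM with exon bases outside other genes only, and 1253 TPM with protein-coding, non-mitochondrial genes as the denominator, since the total is then smaller. In CPM, without length correction, it was 2356, and the ERBB share became 43.4%, EPH 13.8%, insulin 17.6%, FGFR 2.24% and TAM 3.13%, which puts the insulin family above EPH. With exon bases outside other genes the insulin share was 12.7%. The only setting that called members as different between libraries was the undivided chi-square, with 12 of 41 (29.3%, beside 17.3% of all genes tested). The median coefficient of variation of members ranged from 3.30% to 7.14% when a library was left out; it was 3.82% without library 1 and 3.30% without library 3. Without library 1, 38 of all genes differed between libraries, and without library 3, 49, beside 176 with all. Without library 2 the number rose to 223, so libraries 1 and 3 were the pair with the most genes called. Of single member levels, 51 moved by more than 1 SD in CPM, 49 with the protein-coding denominator and 14 with the other length. CPM is another unit, and the protein-coding denominator raised every level 1.59-fold, so the counts of 51 and 49 mainly reflect the change of scale. Leaving out a library gave 0, but dropping 1 of 3 values cannot move their mean by 1 SD, so that 0 was fixed in advance. Without library 3, TEK and PDGFRA fell to 0 TPM and LTK from 0.0454 to 0.00988 TPM. No paired analysis was possible because the only group analysed here, C4-2B, has no second group to pair its replicate numbers with. Under 100 counts, the level of a member and its place in the order are limited by depth.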
